A study of Homo sapiens with 6 samples.

Results

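KISS1 and 6 further genes known as metastasis suppressors, or as the receptor of one, were compared between MDA-MB-231 cells that overexpressed a SUMO-binding mutant of DAXX (DSM OE) and MDA-MB-231 cells that overexpressed wild-type DAXX (DAXX OE). MDA-MB-231 is an established triple-negative breast cancer line with high metastatic capacity. The 7 genes, KISS1, KISS1R, BRMS1, CD82, NME1, MAP2K4 and PEBP1, were selected by name from 22465 genes measured on the array, and KISS1 was selected on its difference in these same 6 arrays. The values of KISS1 are therefore given as a description with no test, whereas the other 6 genes carry the test over all genes. Each of the 7 genes had 1 transcript cluster, the unit into which the array groups its probes, that carried its symbol alone.

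The mutant, abbreviated DSM, has both of its SUMO-interacting motifs (SIM1 and SIM2) disabled, so that it no longer binds SUMO, a ubiquitin-like protein that is coupled to many nuclear factors. Both forms of DAXX, a histone chaperone and transcriptional co-regulator, were tagged with FLAG, MYC and His and were driven by the CMV immediate early promoter of a lentiviral vector. Both populations kept their endogenous DAXX gene, were selected with 2 µg/mL puromycin, and were grown for 24 h in complete DMEM before RNA was taken. RNA from each population was hybridised to 3 GeneChip HTA 2.0 arrays, which the labels call biological replicates of 1 stable population per construct, and the tests therefore cover the spread among cultures of these populations and say nothing about separate transductions. Cells with an empty vector or with DAXX knockdown were not analysed here. Values are log2 signals normalised by robust multi-array averaging (RMA), and differences are DSM OE minus DAXX OE.

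A metastasis suppressor is a gene whose product hinders the spread of tumour cells to other organs without stopping growth at the primary site. KISS1 encodes a secreted precursor that is cut into kisspeptins. These peptides act on a G protein-coupled receptor, KISS1R, which signals through Gq and phospholipase C, and in the hypothalamus the same pair controls the release of gonadotropin-releasing hormone. The other members act inside the cell or at its membrane. BRMS1 works in a histone deacetylase complex, CD82 is a tetraspanin, NME1 is a nucleoside diphosphate kinase, MAP2K4 activates JNK and p38 kinases, and PEBP1 is a small cytosolic protein that restrains ERK signalling.

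1 library stood apart from the rest. Over all genes, DAXX OE replicate 1 correlated with the other arrays at 0.973 to 0.980, whereas the other 5 correlated with each other at 0.996 to 0.998. Its signals were compressed, with an SD over genes of 1.63 against 1.82 to 1.85 on the other arrays. For 6 of the 7 members it read lower than the mean of DAXX OE replicates 2 and 3, the exception being KISS1R, and each result is given with and without it. VIM, AXL and MSN, 3 of 6 mesenchymal markers, lay above all 23 background probe sets on every array. None of 8 luminal markers and none of 3 measured markers of placenta, the tissue richest in KISS1, did so. The highest background set reached 11.66, however. The luminal gene KRT19 and the placental gene KRT7 lay above at least 22 of the 23 sets, as did the mesenchymal genes CD44 and CAV1. The hormone receptor genes ESR1 and PGR lay above as few as 13 and 10 of the 23 background sets. The mean signal of the mesenchymal list was 10.43 to 10.45 in DSM OE and 10.39 to 10.55 in DAXX OE, that of the luminal list 6.43 to 6.48 and 6.39 to 6.45, and that of the placental list 6.40 to 6.50 and 6.48 to 6.59. No marker passed the threshold. Single markers had separate groups with and without DAXX OE replicate 1, as had 19.2% and 31.6% of all genes. PSG1, a placental glycoprotein gene read above as few as 11 of the 23 background sets, had a difference of -0.41. KRT7, also of the placental list, had 0.14. The luminal genes KRT19 and EPCAM had 0.35 and 0.33, and the mesenchymal gene MSN had 0.13. The part of these cell type markers in the results was not tested.

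The promoter of KISS1 is shown because KISS1 carries the main difference, and that of CD82 because it is built in a contrasting way. The stretches are the 250 bases before an annotated start of each gene, from RefSeq on GRCh38.p14, in which 6 of the 7 members had an entry. That of KISS1 lies at chr1:204196492-204196741 on the minus strand, and that of CD82 at chr11:44565413-44565662 on the plus strand. The CD82 stretch lies inside the gene, which begins at 44564409, so the start it precedes is not the first base of the gene. Both are written 5′ to 3′ along the gene, and the capitals mark matches, on either strand, to 4 motifs. These were GGGCGG for the GC box, TATAAA for the site of the TATA-binding protein, TGACG for the core of the cAMP response element and GCCNNNGGC for AP-2.
KISS1: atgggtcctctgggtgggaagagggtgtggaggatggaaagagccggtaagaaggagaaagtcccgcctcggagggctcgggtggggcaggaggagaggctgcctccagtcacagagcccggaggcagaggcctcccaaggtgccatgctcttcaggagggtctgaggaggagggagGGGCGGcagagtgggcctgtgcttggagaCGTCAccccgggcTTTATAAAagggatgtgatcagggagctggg
CD82: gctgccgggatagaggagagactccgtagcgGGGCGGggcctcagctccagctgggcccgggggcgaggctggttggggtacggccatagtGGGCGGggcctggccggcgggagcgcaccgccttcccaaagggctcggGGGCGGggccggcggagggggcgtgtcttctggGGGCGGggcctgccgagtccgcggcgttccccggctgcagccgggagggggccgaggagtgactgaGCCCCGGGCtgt
The KISS1 stretch held a GC box whose first letter lay 73 bases before the start, a TGACG match at 44 bases that reads CGTCA on the strand shown, and a pair of overlapping TATAAA matches, 1 on each strand, at 31 and 29 bases. It was the only 1 of the 6 with a TATAAA match, which 10.7% of 35116 promoter windows held. It had a GC content of 63.6% and 8 CpG dinucleotides, against a median of 58% and 11 over all windows. The CD82 stretch held 4 GC boxes, at 219, 159, 111 and 78 bases before the start, and an AP-2 match at 12 bases, with a GC content of 77.2% and 26 CpG dinucleotides. The other 4 stretches held 16 to 30 CpG dinucleotides. Over all windows, 42.6% held the GC box, 21.2% TGACG and 19.8% the AP-2 letters, so most of these matches are common ones. The letters of an E-box (CACGTG), found in 6.34% of windows, occurred in none of the 6. A match is a description of the letters and says nothing of whether a factor binds.

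KISS1 was lower in DSM OE than in DAXX OE on every array. The signal was 6.88, 6.82 and 6.80 in DSM OE replicates 1, 2 and 3, against 7.85, 8.03 and 8.06 in DAXX OE replicates 1, 2 and 3. The groups did not overlap, and their nearest arrays, DSM OE replicate 1 and DAXX OE replicate 1, were 0.96 log2 units apart. The mean was 6.83 ± 0.05 in DSM OE and 7.98 ± 0.11 in DAXX OE (SD, n = 3 each), a log2 difference of -1.15 (SE 0.09), or a 2.21-fold lower signal in DSM OE. Over the 9 pairs of a DSM OE and a DAXX OE array the difference ran from -1.26 to -0.96. With DAXX OE replicate 1, the lowest of its group, left out, it was -1.21 (SE 0.04), or 2.32-fold. The KISS1 signal stood above 16 to 19 of the 23 background probe sets, so the lower group was still read above most of them. The DSM OE signal lay close to the medians over genes of 6.72 to 6.75. How near the floor of the array it lay was not tested. In RNA from a whole culture, fewer cells that express KISS1 and less KISS1 RNA per cell cannot be told apart.

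**Figure D1:**
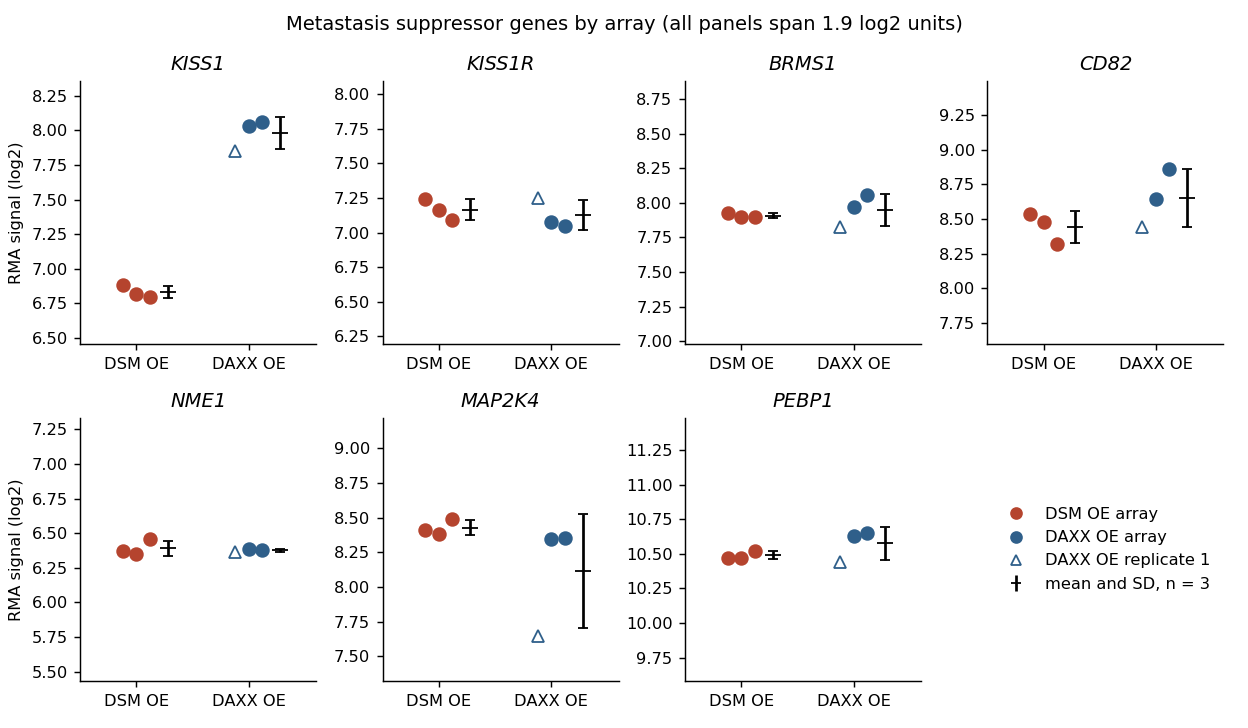
Log2 RMA signal (y axis) of the 7 genes on each array, DSM OE left and DAXX OE right in each panel, with every point 1 array, the triangle DAXX OE replicate 1, the black marks the group mean and SD (n = 3), and each panel spanning the same range of log2 units. KISS1 falls into separate groups at 6.80 to 6.88 in DSM OE and 7.85 to 8.06 in DAXX OE, while in MAP2K4 the single low point at 7.64 is DAXX OE replicate 1.

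KISS1R, the receptor of kisspeptins, showed no such separation. Its signal was 7.24, 7.16 and 7.09 in DSM OE, against 7.25, 7.08 and 7.05 in DAXX OE. The groups overlapped, with the highest and the lowest array both in DAXX OE. The difference was 0.04 (SE 0.09, 95% interval -0.18 to 0.26, limma adjusted p = 0.827), which leaves room for a small change in either direction. With DAXX OE replicate 1, its highest array, left out, it was 0.10 (interval -0.03 to 0.23, limma adjusted p = 0.440), and after cyclic loess normalisation its sign turned to -0.01. The signal of the receptor stood above 16 to 18 of the 23 background sets.

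CD82, a tetraspanin that organises adhesion receptors in the plasma membrane, had the largest negative difference among the 6 tested members. Its signal was 8.54, 8.48 and 8.32 in DSM OE, against 8.44, 8.64 and 8.86 in DAXX OE. DSM OE replicates 1 and 2 lay above DAXX OE replicate 1, so the groups overlapped. The means were 8.44 ± 0.11 in DSM OE and 8.65 ± 0.21 in DAXX OE (SD, n = 3 each), a difference of -0.21 (SE 0.13, interval -0.50 to 0.09, limma adjusted p = 0.682). Once DAXX OE replicate 1 was left out the groups no longer overlapped and the difference was -0.31 (SE 0.09, interval -0.52 to -0.10), 1.24-fold lower in DSM OE. That value did not pass over all genes either (limma adjusted p = 0.179).

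PEBP1, the inhibitor of ERK signalling, behaved in a similar way on a smaller scale. It read 10.47, 10.47 and 10.52 in DSM OE, against 10.44, 10.63 and 10.65 in DAXX OE. The groups overlapped because DAXX OE replicate 1 lay just below the 3 DSM OE arrays, while the other DAXX OE arrays lay above them. The difference was -0.09 (interval -0.30 to 0.12, limma adjusted p = 0.691) with 6 arrays and -0.15 (interval -0.25 to -0.06, limma adjusted p = 0.152) without that array, or 1.11-fold lower in DSM OE.

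BRMS1, a subunit of the SIN3 histone deacetylase complex, read 7.93, 7.90 and 7.90 in DSM OE, against 7.83, 7.97 and 8.05 in DAXX OE. The DSM OE arrays were close together and lay inside the DAXX OE range. The difference was -0.04 (interval -0.25 to 0.16, limma adjusted p = 0.811), and -0.11 without DAXX OE replicate 1 (limma adjusted p = 0.325). Without DAXX OE replicate 3 instead, its sign turned to 0.01.

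MAP2K4, the kinase upstream of JNK and p38, was the only tested member whose groups did not overlap with 6 arrays. It read 8.41, 8.38 and 8.49 in DSM OE, against 7.64, 8.35 and 8.36 in DAXX OE. The separation was narrow: the nearest arrays were 0.03 apart, and DAXX OE replicate 1 lay 0.71 below the mean of the other DAXX OE arrays. The difference of 0.31 (SE 0.19, interval -0.13 to 0.76, limma adjusted p = 0.682) became 0.08 (interval -0.04 to 0.19, limma adjusted p = 0.530) without that array.

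NME1, a nucleoside diphosphate kinase and the first metastasis suppressor to be described, gave the smallest difference of the 7. It read 6.37, 6.35 and 6.45 in DSM OE, against 6.36, 6.39 and 6.38 in DAXX OE. The DAXX OE arrays fell within the DSM OE range. The NME1 signal was the lowest of the 7 and stood above 15 to 16 of the 23 background sets. It lay below the medians over genes of 6.72 to 6.75. How near the floor of the array NME1 lay was not tested. The difference was 0.02 (interval -0.17 to 0.20, limma adjusted p = 0.922), and 0.01 without DAXX OE replicate 1 (interval -0.10 to 0.12).

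**Figure D2:**
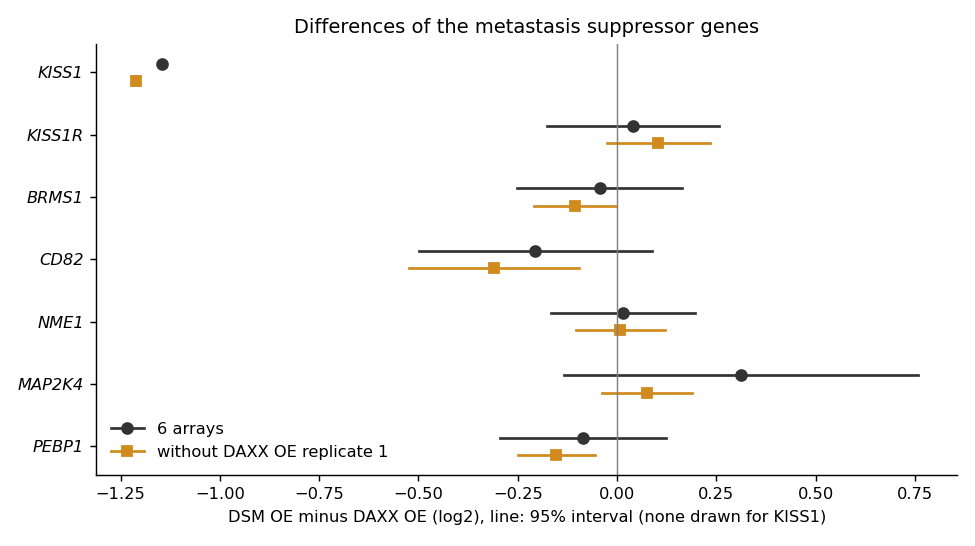
Log2 difference (DSM OE minus DAXX OE, x axis) of the 7 genes, with all 6 arrays (circles) and without DAXX OE replicate 1 (squares), and lines for the 95% interval of limma, which is drawn for the 6 tested genes only. KISS1 lies at -1.15 and -1.21, whereas the other 6 genes lie between -0.31 and 0.31.

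None of the 6 tested members passed an adjusted p of 0.05 in limma with 6 arrays, and 0 had an unadjusted p under 0.05. Over all 22465 genes 14 passed, or 0.0623%, and 5.16% had an unadjusted p under 0.05. Without DAXX OE replicate 1 again none of the 6 passed, although 3 of them, BRMS1, CD82 and PEBP1, all lower in DSM OE, had an unadjusted p under 0.05. In that fit 280 of all genes passed, or 1.25%, and 15.1% had an unadjusted p under 0.05. After cyclic loess normalisation of all 6 arrays 0 of the 6 passed (lowest limma adjusted p = 0.258), where 25 of all genes passed. Of the 6, 3 then had an unadjusted p under 0.05, and the share of all genes at that cut is not given here. CD82, BRMS1 and PEBP1 were at -0.34, -0.17 and -0.15, and KISS1R, NME1 and MAP2K4 at -0.01, 0.06 and 0.18. By the methods' t-test the 6 members gave 0 calls after adjustment and 0 at an unadjusted p under 0.05 with 6 arrays, and 0 and 2 without DAXX OE replicate 1. For that test the share of all genes at the unadjusted cut is not given here, so the last count has no comparison. The cut-offs that the methods name are 1.3-fold and an unadjusted p under 0.05. With these, limma called 0 of the 6 with all arrays and 0 without DAXX OE replicate 1. Of all genes, 2.25% and 1.07% were called. Counted by overlap alone, 1 of the 6 had separate groups with 6 arrays, beside 19.2% of all genes, and 5 of the 6 without DAXX OE replicate 1, beside 31.6%, in which separation between 3 and 2 arrays is easily met.

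The genes around KISS1 on chromosome 1 were looked at next, to see whether the difference extended along the chromosome. In RefSeq gene order (GRCh38.p14), the 5 genes on each side include LINC00303, SOX13 and ETNK2 on the lower side and GOLT1A, PLEKHA6 and LINC00628 on the upper side, 6 of 10 being measured. SOX13 encodes a transcription factor of the SOX family and ETNK2 an ethanolamine kinase. GOLT1A, the nearest measured gene on the upper side, read 5.80, 5.96 and 5.78 in DSM OE, against 6.29, 5.91 and 5.84 in DAXX OE. Only DAXX OE replicate 1 stood above the rest in that gene. ETNK2, the nearest on the lower side, read 7.36, 7.28 and 7.27 in DSM OE, against 7.27, 7.22 and 7.26 in DAXX OE, and its arrays overlapped.

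The 6 differences ran from -0.17 in GOLT1A to 0.13 in SOX13, and 0 genes passed (limma adjusted p from 0.682 to 0.967, 0 at an unadjusted p under 0.05). Without DAXX OE replicate 1 they ran from -0.03 to 0.08, and 0 passed (0 at an unadjusted p under 0.05). Taking the 5 nearest measured genes on each side, a choice made after seeing the data, added LAX1, SNRPE, PPP1R15B and PIK3C2B. The 10 genes again lay between -0.17 and 0.13 and 0 passed (0 at an unadjusted p under 0.05). With DAXX OE replicate 1 left out they lay between -0.14 and 0.08 and 0 passed, and 2 had an unadjusted p under 0.05, as did 15.1% of all genes.

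**Figure D3:**
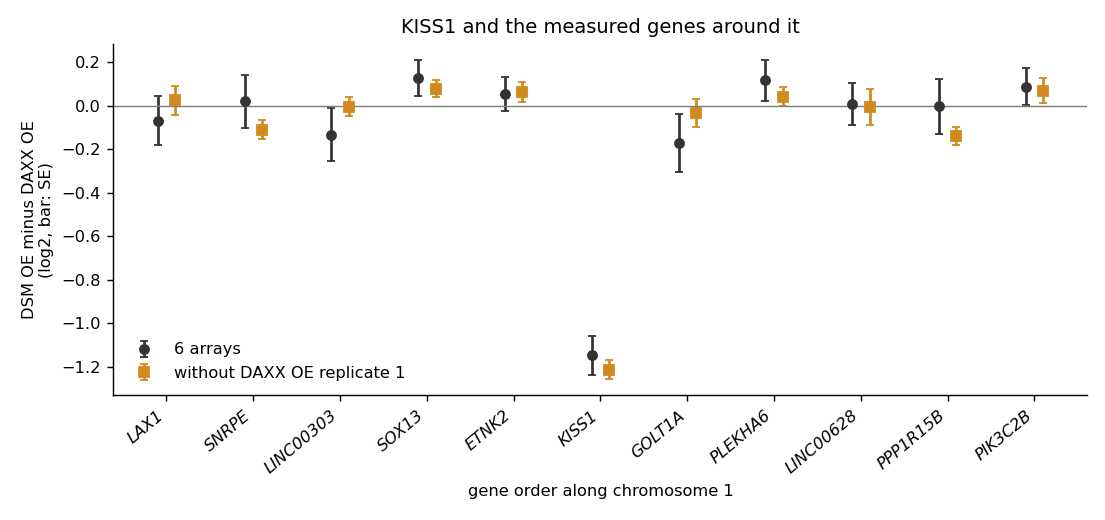
Log2 difference (DSM OE minus DAXX OE, y axis) of KISS1 and its 5 measured neighbours on each side, in chromosomal order (x axis), with all 6 arrays (circles) and without DAXX OE replicate 1 (squares) and bars for the SE. KISS1 stands alone at -1.15 and -1.21, while its neighbours lie between -0.17 and 0.13.

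The genes whose signals ran most like KISS1 over the 6 arrays were FGF13, NQO1, SERPINE2 and NCAM2. They were the 4 with the highest Pearson correlation among 3494 genes with a mean above the median gene and a range of at least 0.5 log2 units. The arrays fall into 2 groups, so a high r mainly records a shared difference between the groups, and no test is given. FGF13, an intracellular member of the fibroblast growth factor family, reached r = 0.997 (rho 0.94). It read 7.31, 7.34 and 7.28 in DSM OE, against 7.89, 7.95 and 8.01 in DAXX OE.

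The other 3 gave r = 0.983 for NQO1, a quinone reductase, 0.977 for SERPINE2, an inhibitor of thrombin and plasminogen activators, and 0.967 for NCAM2, a neural cell adhesion molecule. NCAM2 had the widest difference of these 4 genes. It read 6.65, 6.55 and 6.68 in DSM OE, against 7.25, 7.79 and 7.83 in DAXX OE. All 4 were lower in DSM OE with groups that did not overlap, which follows from picking them for likeness to KISS1. Over all genes 19.2% had separate groups. The log2 differences were -0.64 in FGF13, -0.41 in NQO1, -0.53 in SERPINE2 and -0.997 in NCAM2. In the 5 arrays without DAXX OE replicate 1 the correlations were 0.997, 0.982, 0.989 and 0.996 in the same order. They rest on the same split into groups.

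**Figure D4:**
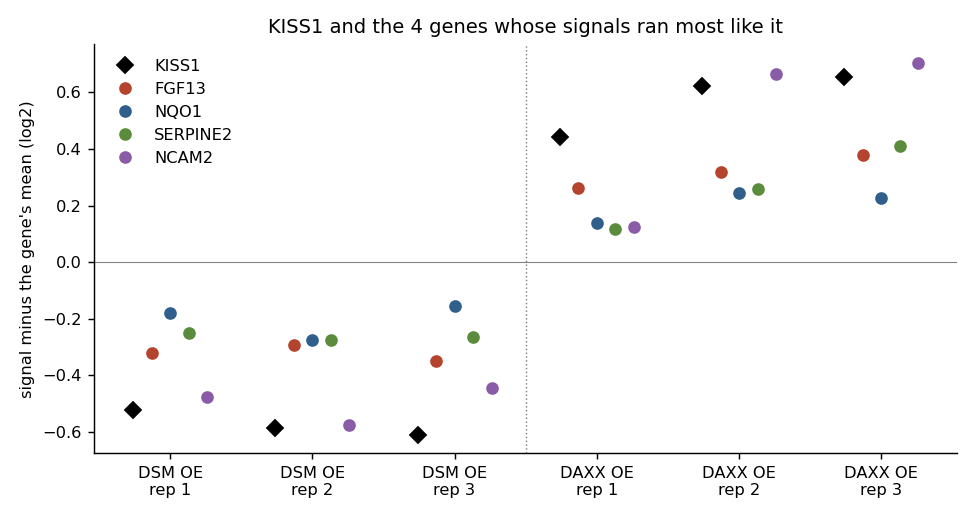
Log2 signal of KISS1 (diamonds) and the 4 genes whose signals ran most like it (circles), as the distance from each gene's mean over the 6 arrays (y axis), by array (x axis), DSM OE left and DAXX OE right. All 5 genes lie below their mean on the 3 DSM OE arrays and above it on the 3 DAXX OE arrays, as the selection implies. Of the DAXX OE arrays, replicate 1 is nearest to the mean in each.

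The genes that work with the members were then taken as 9 lists with 180 genes, of which 159 were measured. With 6 arrays 0 of the 159 passed (limma, and 0 by the methods' t-test after adjustment), beside 0.0623% of all genes. At an unadjusted p under 0.05 there were 13, or 8.18%, beside 5.16% of all genes. Without DAXX OE replicate 1, 4 passed, or 2.52% of the 159 beside 1.25% of all genes. All 4 were higher in DSM OE, as were 196 of the 280 genes that passed in that fit. The lists were written with earlier results known, so these counts are a description.

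None of the peptides and receptors related to kisspeptin passed the threshold, and 0 had an unadjusted p under 0.05 in either fit. All 14 measured genes of RFamide and reproductive neuropeptides and their receptors had negative differences with 6 arrays, with a median of -0.09 beside 0.01 over all genes. DAXX OE replicate 1 read above the mean of the other DAXX OE arrays in 13 of the 14, and without it 8 were positive and 6 negative, with a median of 0.02. PRLH, the precursor of prolactin-releasing peptide, shows this: it read 7.76, 7.80 and 7.69 in DSM OE, against 8.39, 7.83 and 7.81 in DAXX OE. OPRK1, the kappa opioid receptor, had a difference of -0.10 with the same single high array.

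Among 23 measured genes that process or break down kisspeptins or carry the signal of KISS1R, 18 were positive and 5 negative, with a median of 0.10 that became -0.01 without DAXX OE replicate 1. CXCR4, the receptor of CXCL12 and a driver of breast cancer cell homing whose signalling KISS1R can dampen, read 8.33, 8.36 and 8.43 in DSM OE, against 7.48, 7.85 and 7.87 in DAXX OE. The groups did not overlap with or without DAXX OE replicate 1. The difference was 0.64 with 6 arrays (limma adjusted p = 0.376) and 0.51 without that array (limma adjusted p = 0.00805).

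PLCB1, a phospholipase C that Gq activates, read 5.74, 5.64 and 5.56 in DSM OE, against 5.31, 5.01 and 5.07 in DAXX OE. Its groups were also separate. The PLCB1 signal stood above as few as 12 of the 23 background sets. It lay below the medians over genes of 6.72 to 6.75. How near the floor of the array PLCB1 lay was not tested. The difference was 0.52 (limma adjusted p = 0.426), and 0.61 without DAXX OE replicate 1 (limma adjusted p = 0.0144). After cyclic loess normalisation of all 6 arrays CXCR4 and PLCB1 both passed (limma adjusted p = 0.0368 each). GNAQ, the Gq subunit itself, had a difference of 0.31 that became 0.09 without that array. FURIN, which cuts the kisspeptin precursor, had 0.24 and 0.06, and MMP9, which inactivates kisspeptins, had -0.17 and -0.04.

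Of 10 regulators of KISS1 transcription, 9 were positive with a median of 0.10 (0.04 without DAXX OE replicate 1). None passed in either fit, with 1 and 2 at an unadjusted p under 0.05, beside 5.16% and 15.1% of all genes. MED23, a Mediator subunit, read 8.26, 8.25 and 8.25 in DSM OE, against 7.51, 8.13 and 8.15 in DAXX OE. TXNIP, a thioredoxin-binding protein, read 9.53, 9.50 and 9.49 in DSM OE, against 9.03, 9.37 and 9.29 in DAXX OE. In both genes the DSM OE values all exceeded the DAXX OE values, in MED23 by little apart from DAXX OE replicate 1. The differences without that array were 0.11 (limma adjusted p = 0.237) and 0.17 (limma adjusted p = 0.138).

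The partners of BRMS1 and CD82 gave 0 calls in limma in either fit. At an unadjusted p under 0.05 there were 4 with 6 arrays, all in the list of tetraspanins and their partners, beside 5.16% of all genes. Without DAXX OE replicate 1 that list had 5 higher and 2 lower in DSM OE, beside 15.1% of all genes in either direction. In the SIN3-HDAC complex 13 of 14 genes were positive with a median of 0.13, DAXX OE replicate 1 read below its group in all 14, and the median without it was 0.01. SIN3A, the scaffold, had a difference of 0.18 that became 0.03, and HDAC1 one of 0.10 that became 0.03. SIN3B and SAP130, the genes of this list with the lowest unadjusted p, had 0.26 and 0.22. Of 34 tetraspanins and their partners, 20 were positive and 14 negative, with a median of 0.04 (0.01 without DAXX OE replicate 1). TSPAN8 had the largest difference of that list, at 0.39 in both fits (limma adjusted p = 0.0788 without DAXX OE replicate 1), and TSPAN2 had 0.33. CD9, CD81 and CD151, tetraspanins that associate with integrins, had 0.27, 0.10 and 0.15, and 0.16, 0.06 and 0.06 without that array.

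The kinase lists around NME1, MAP2K4 and PEBP1 also gave 0 calls in limma in either fit. At an unadjusted p under 0.05 there were 3 with 6 arrays, beside 5.16% of all genes. Without DAXX OE replicate 1 the lists in that order had 2, 5 and 0 genes higher in DSM OE at that cut. They had 0, 0 and 1 lower, beside 15.1% of all genes in either direction. The medians of these lists moved with the same array. The JNK and p38 cascade had the highest median of the 9 lists with 6 arrays, 0.17 over 20 genes of which 17 were positive, and 0.01 without DAXX OE replicate 1. MAPK13, the delta isoform of p38, read 8.31, 8.23 and 8.21 in DSM OE, against 7.62, 7.87 and 7.98 in DAXX OE. Its difference was 0.43 (limma adjusted p = 0.656), or 0.32 without DAXX OE replicate 1 (limma adjusted p = 0.0522). MAP2K6, a kinase of p38, had 0.43 and 0.23, and MAPK8, which is JNK1, had 0.20 and 0.00.

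The 11 measured genes of the NME family and SET complex had a median of 0.09 and 0.01 without that array, and KSR1, a scaffold of the ERK cascade that NME1 phosphorylates, had 0.30 and 0.31 (limma adjusted p = 0.0622 without DAXX OE replicate 1). NME5 had 0.16 in both fits. The 11 of the RAF-MEK-ERK cascade had medians of 0.07 and 0.01, with ARAF, a RAF kinase, at 0.20 and 0.08 and IKBKB, an NF-κB pathway kinase that PEBP1 also binds, at 0.21 and 0.10. HMGA2, a chromatin protein of the pathway that PEBP1 restrains, differed by 0.00 and by -0.12. NME2, BRMS1L, MAP2K7, MAPK14 and BACH1 were not analysed here.

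**Figure D5:**
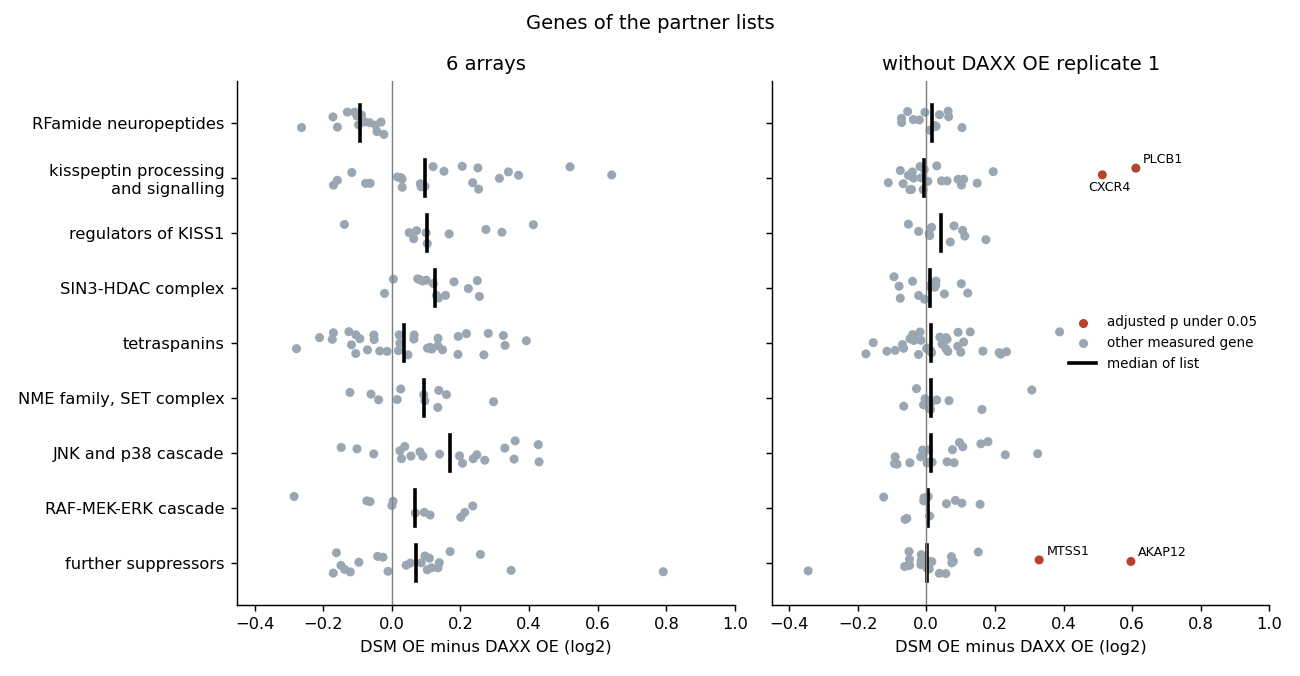
Log2 difference (DSM OE minus DAXX OE, x axis) of each measured gene of the 9 partner lists, with all 6 arrays (left) and without DAXX OE replicate 1 (right), with a black bar for the median of the list and red for an adjusted p under 0.05. The medians of -0.09 to 0.17 on the left lie between -0.01 and 0.04 on the right, where CXCR4, PLCB1, AKAP12 and MTSS1 are red.

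Further metastasis suppressors were measured for 22 of 26 genes, and 13 were positive and 9 negative, with a median of 0.07 that became 0.00 without DAXX OE replicate 1. The 2 that passed without that array, beside 1.25% of all genes, were higher in DSM OE. So were 196 of the 280 genes that passed in that fit. AKAP12, a scaffold that anchors protein kinases A and C, read 8.42, 8.45 and 8.33 in DSM OE, against 7.22, 7.80 and 7.81 in DAXX OE. The difference was 0.79 (limma adjusted p = 0.426), and 0.60 without DAXX OE replicate 1 (limma adjusted p = 0.00703). MTSS1, which bends membranes and binds actin, read 6.25, 6.35 and 6.27 in DSM OE, against 6.17, 5.93 and 5.99 in DAXX OE. Its difference was 0.26 (limma adjusted p = 0.682), and 0.33 without DAXX OE replicate 1 (limma adjusted p = 0.0389). In both genes the groups did not overlap. AKAP12 and MTSS1 stood above as few as 18 and 14 of the 23 background sets. After cyclic loess normalisation of all 6 arrays neither passed (limma adjusted p = 0.0815 and 0.0997).

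DAXX itself read 9.31, 9.36 and 9.36 in DSM OE, against 8.68, 8.95 and 8.94 in DAXX OE. Probes in the coding sequence read the endogenous and the introduced transcript alike, so this value does not separate them. The DAXX difference was 0.49 (limma adjusted p = 0.416), and 0.40 without DAXX OE replicate 1 (limma adjusted p = 0.0144). It was 0.37 after cyclic loess normalisation of all 6 arrays (limma adjusted p = 0.0913). The part of the DAXX signal in the KISS1 difference was not tested.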

How the data were processed

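RNA from 6 MDA-MB-231 cultures, 3 DSM OE and 3 DAXX OE, was measured on 1-colour GeneChip HTA 2.0 arrays from 200 ng of total RNA. The authors made the deposited log2 signals by RMA, which corrects background, quantile-normalises probes and summarises clusters. Affymetrix Expression Console 1.3 is named in the submitters' processing notes. A ComBat correction is described in the methods for arrays collected at different times, and the sources used here do not state whether these arrays went through it. There were 67528 transcript clusters among 70523 rows. Of those listed in the annotation, 23781 had 1 symbol and 1543 had several, which were named for no gene. For each of 22465 genes the cluster with the highest mean was taken, and dim genes were kept. Precision is limited by the number of arrays.

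DSM OE minus DAXX OE was fitted for all genes in R 4.3.3 by lmFit and 2-sided eBayes of limma 3.58.1, with Benjamini-Hochberg adjustment over all genes and a threshold of 0.05. The script was tested on simulated data. The members and gene lists were chosen with earlier results of these data known. Named genes were the 7 members, all list genes and neighbours that passed in either fit (all arrays, or DAXX OE replicate 1 left out), the 2 genes of each list with the lowest unadjusted p, 20 further genes taken whatever their values, and the 4 genes most like KISS1, leaving out small RNAs and uncharacterised loci. Alternatives included a replicate block, leaving out each array, genes above the median level, other normalisations, moderation, array weights, other choices of clusters, and the methods' t-test and thresholds. Same-numbered arrays of the groups deviated from their group means with correlations of -0.05, -0.30 and 0.17, so the numbers were not taken as pairs.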

Additional observations from a re-analysis of the deposited data

How the results depend on the processing

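KISS1 was selected on its difference, so its values under the 17 alternatives are a description. They ran from -1.23 after cyclic loess to -1.11, with -1.21 to -1.11 when 1 array was left out. Alternatives that changed only the test, the threshold or the set of genes left it at -1.15 by construction. So did the other choices of clusters, since KISS1 has 1. The number of genes past the threshold depended on the setting. It was 14 with all arrays and 1 to 280 when 1 array was left out, with 1 without any DSM OE array, 280 without DAXX OE replicate 1, 2 without DAXX OE replicate 2 and 3 without DAXX OE replicate 3. It was 40 with the replicate block, 5 among genes above the median level only, 25 after cyclic loess, 23 over all transcript clusters, 9677 with array weights, whose estimation did not converge, 1 by the methods' t-test after adjustment and 505 at a fold change beyond 1.3 with an unadjusted p under 0.05. The replicate block cannot change a difference of group means in this balanced design, and KISS1 remained at -1.15. KISS1R turned to -0.0274 after quantile normalisation and to -0.0118 after cyclic loess. NME1 ran from -0.0162 to 0.0359 when 1 array was left out and was -0.000277 with array weights, and BRMS1 ran from -0.106 to 0.00831 when 1 array was left out. With array weights KISS1R, BRMS1, CD82 and PEBP1 passed the threshold (limma adjusted p = 0.0278, 0.0447, 0.00796 and 0.00158). The cause of these turns was not tested. With 3 arrays a group and 1 that stands apart, the 95% intervals of the 6 tested members were wide, up to -0.13 to 0.76 for MAP2K4, and differences inside them could not be resolved.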
